A study of Rattus norvegicus with 6 samples.

Results

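Cytochrome P450 genes were examined on 6 Affymetrix RG_U34A arrays of RNA from brain capillaries of stroke-prone spontaneously hypertensive rats (SHRSP), a strain that develops severe hypertension and strokes. The members were all probe sets (groups of short probes that read a transcript or several like ones) whose single annotated gene symbol began with Cyp and a digit. They numbered 84 of the 8740 probe sets that were not array controls, and they stood for 49 genes. By name, 27 of the 84 were of the plain type, 46 of the _s_at type and 4 of the _f_at type. The _s_at and _f_at types can read several like transcripts. Which P450 transcripts each probe set binds was not checked, so a gene name below is that of the annotation. A further 13 probe sets carried several P450 symbols and were left out.

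The rats were 6 weeks old, and 2 arrays each were made for a control group, a group on lisinopril (ACEI, an inhibitor of angiotensin-converting enzyme, 6 mg/kg/day) and a group on olmesartan (ARB, a blocker of the angiotensin receptor, 4 mg/kg/day by mouth). The labels also name 1% NaCl, but do not say whether every group or the controls alone received it. The doses of both drugs differ in mass, so ARB against ACEI compares these groups and not the drugs at matched doses. The study asked how angiotensin II influences gene expression in small brain vessels. The labels do not say whether the arrays of a group came from separate animals, so each p-value measures only the spread between these arrays, which may be technical. In such bulk RNA, fewer cells of a type and less RNA per cell cannot be told apart.

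Cytochrome P450 enzymes are haem proteins that insert an oxygen atom into their substrates, with electrons from P450 reductase in the endoplasmic reticulum or from ferredoxin in mitochondria. Families 1 to 3 oxidise mainly drugs and other foreign compounds and are most abundant in liver. Family 4 hydroxylates fatty acids, and some of its members turn arachidonic acid into 20-HETE, a constrictor of brain arteries. The higher numbered families and family 7 carry out fixed steps in the making and breakdown of sterols, bile acids, steroid hormones, vitamin D and retinoic acid.

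The values are intensities on a linear scale, scaled to a like mean on each array, with no detection calls. Each array therefore got its own reference level from 19 control probe sets for transcripts of other organisms (Bacillus subtilis and yeast). A probe set counted as near this foreign level on an array when it lay at or below their 90th percentile there. That percentile was 335.3 and 342.4 for ARB and 36.2 to 133.6 for the other 4 arrays, so the reference level itself moved with the ARB group. The median intensity of all probe sets was 486.7 and 495.7 on the ARB arrays against 246.1 to 354.3 on the others. The first arrays of the control and ACEI groups shared a run day and a chip lot, and the other 4 arrays shared a later day and another lot. The first arrays of all groups shared a fluidics protocol, and the second arrays shared another. Control 2 stood apart in its ratio of 3' to 5' Gapdh signal, a measure of RNA integrity, with 7.31 against 0.93 to 1.59 on the other arrays. The part of these differences in the results below was not tested.

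Most P450 probe sets lay low. Of the 84, 22 (26.2%), from 16 genes, were above the foreign 90th percentile on all 6 arrays, against 45.7% of all probe sets. At the other end, 15 were above it on 0 arrays. The median P450 intensity of an array was 140.0 and 158.5 (control), 119.8 and 65.5 (ACEI) and 220.4 and 322.2 (ARB). The count of P450 probe sets above the percentile was 55 and 62 (control), 39 and 51 (ACEI) and 34 and 41 (ARB). The ARB arrays thus had the highest P450 medians, and ARB 1 the fewest P450 probe sets above its foreign level.

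**Figure D1:**
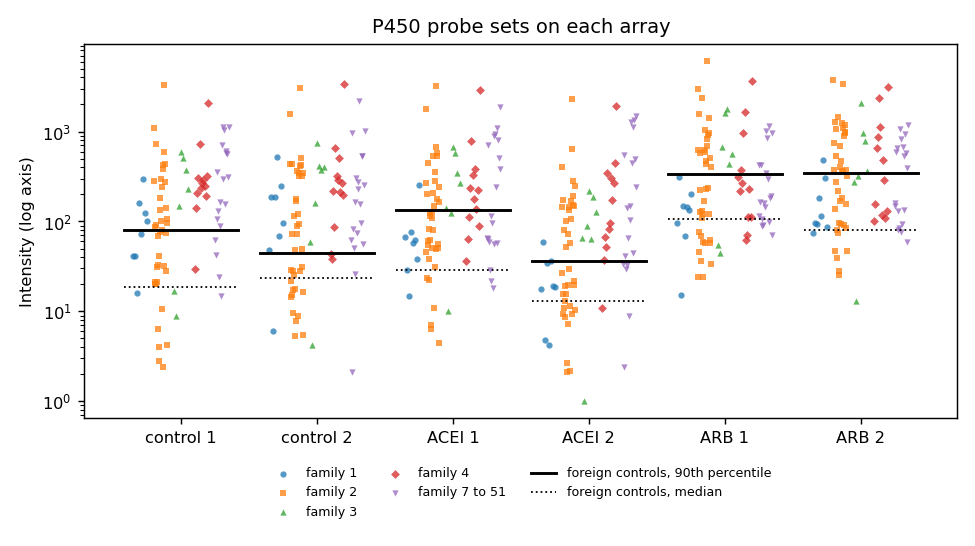
Intensity (log axis) of P450 probe sets on each of the 6 arrays, beside the foreign level of that array. Solid lines mark the foreign 90th percentile (335.3 and 342.4 for ARB, 36.2 to 133.6 elsewhere) and dotted lines the foreign median.

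The families differed in how many probe sets cleared the foreign level. In family 2, 11 of 38 probe sets did so on all 6 arrays, and in family 3, 4 of 7. In family 4 the count was 3 of 12, and in family 51, 2 of 5. Families 24 and 27 had 1 each, of 2 and 3 probe sets. None of the 8 probe sets of family 1 did, nor any of families 7 (3 probe sets), 11 (2 probe sets), 17, 19, 21 and 26 (1 probe set each). Within family 2, all 4 probe sets of the Cyp2d genes were above the level on all 6 arrays, against 2 of 14 of the Cyp2c genes and 1 of 7 of the Cyp2b genes.

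**Figure D2:**
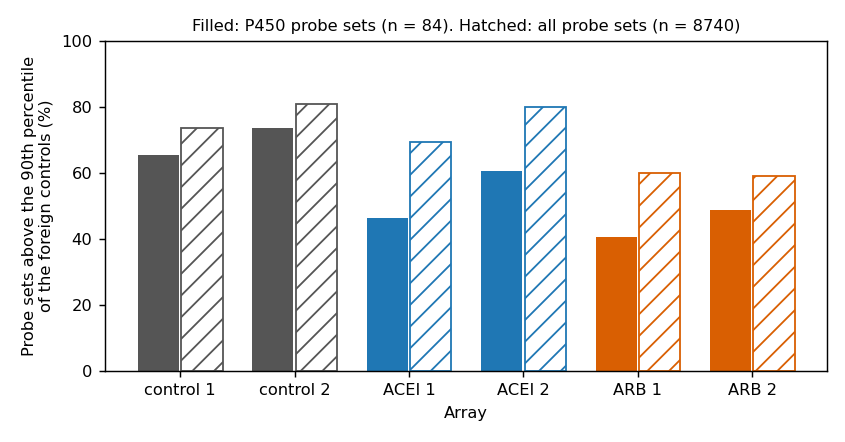
Percent of probe sets above the foreign 90th percentile on each array, for the P450 probe sets (filled bars) and all probe sets (hatched bars). On each array the P450 share is the smaller, from 40.5% against 60.1% on ARB 1 to 73.8% against 80.9% on control 2.

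The stretches upstream of 5 of these genes are shown because they stand for family 2 genes with large ARB differences (Cyp2c11, Cyp2c13) and for genes whose leading probe set was above the foreign level on all 6 arrays (Cyp2d4, Cyp4f6, Cyp51). Each is the 250 bases before the annotated start in RefSeq (rat build GRCr8), on the gene's own strand, 5′ to 3′. Capitals mark TATAAA, the core of the TATA box, in the first pair, and GGGCGG, the core of the GC box bound by Sp1, in the others, where it lies on the opposite strand and reads CCGCCC. The second match of Cyp2c13 lies on the opposite strand and reads TTTATA. The coordinates are chr1:246174966-246175215 (plus strand) for Cyp2c11, chr1:248787189-248787438 (minus) for Cyp2c13, chr7:115771822-115772071 (minus) for Cyp2d4, chr7:12708379-12708628 (minus) for Cyp4f6 and chr4:30991443-30991692 (plus) for Cyp51.
Cyp2c11: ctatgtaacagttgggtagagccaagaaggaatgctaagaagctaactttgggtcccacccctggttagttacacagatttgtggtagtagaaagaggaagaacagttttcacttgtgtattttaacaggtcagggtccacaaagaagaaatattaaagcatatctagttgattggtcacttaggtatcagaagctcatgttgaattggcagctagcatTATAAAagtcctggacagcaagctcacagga
Cyp2c13: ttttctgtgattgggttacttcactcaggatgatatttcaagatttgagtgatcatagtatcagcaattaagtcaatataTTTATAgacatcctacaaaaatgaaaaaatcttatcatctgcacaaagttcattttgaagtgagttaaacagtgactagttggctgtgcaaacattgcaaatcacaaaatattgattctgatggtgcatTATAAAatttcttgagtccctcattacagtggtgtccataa
Cyp2d4: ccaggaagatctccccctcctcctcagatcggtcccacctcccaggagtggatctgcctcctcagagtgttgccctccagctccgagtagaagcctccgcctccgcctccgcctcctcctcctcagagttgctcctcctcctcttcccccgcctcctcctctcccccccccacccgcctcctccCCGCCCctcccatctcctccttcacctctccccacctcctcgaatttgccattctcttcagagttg
Cyp4f6: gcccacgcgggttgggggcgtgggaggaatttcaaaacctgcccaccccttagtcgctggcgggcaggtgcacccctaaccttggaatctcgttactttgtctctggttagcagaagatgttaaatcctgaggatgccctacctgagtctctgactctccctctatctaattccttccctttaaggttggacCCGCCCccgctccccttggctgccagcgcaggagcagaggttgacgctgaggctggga
Cyp51: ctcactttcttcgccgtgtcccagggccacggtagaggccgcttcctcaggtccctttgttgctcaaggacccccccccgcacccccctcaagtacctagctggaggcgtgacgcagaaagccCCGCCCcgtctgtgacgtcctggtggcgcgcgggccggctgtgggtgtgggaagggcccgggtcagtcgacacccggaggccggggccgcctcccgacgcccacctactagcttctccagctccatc

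The GC content of these stretches was 40.8% for Cyp2c11, 32.0% for Cyp2c13, 64.8% for Cyp2d4, 58.0% for Cyp4f6 and 69.2% for Cyp51. The table of promoters held 37 of the 49 P450 genes. TATAAA, searched on both strands, occurred in 12 of the 37 (32.4%), against 12.9% of 33469 promoters of the same length. GGGCGG occurred in 7 (18.9%), against 30.5%. AGGTCA, the core site of many nuclear receptors, occurred in 13 (35.1%), against 14.1%. GCGTG, the core recognised by the aryl hydrocarbon receptor, occurred in 7 (18.9%), against 25.9%. These are matches of letters and not shown binding sites.

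Differences between groups were tested with limma on log2(intensity + 90), over 5244 probe sets left after the 40% with the lowest mean were set aside. Log2 differences and folds below are on that scale, which understates the change of low values, and errors are SE of the model with n = 2 arrays a group. Of the 84 P450 probe sets, 32 (38.1%), from 22 genes were tested, against 5244 of the 8740 probe sets in all. Just inside the limit lay Cyp4a1 (X07259cds_s_at, mean log2 value 8.307), and just outside it Cyp2c6v1 (M14776_f_at, 8.272). No P450 probe set passed an adjusted p of 0.05 in any comparison, nor did any of the 5244 probe sets (0.0%). The comparisons with the control group share its 2 arrays, and both ARB comparisons share the ARB arrays.

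In olmesartan-treated rats, P450 probe sets read above their level in lisinopril-treated rats in most cases, by a median of 0.85 on the log2 scale over all 84. The median was 0.98 in family 2 (37 of 38 above 0), 0.97 in family 3 (7 of 7), 0.74 in family 4 (8 of 12) and 0.72 in family 1 (8 of 8), and no test set the families apart. Above 0 were also 5998 of all 8740 probe sets and 19 of the 19 foreign controls, so such counts alone do not mark out a family. Both ARB arrays lay above both ACEI arrays for 56 of 84 probe sets (66.7%), where 46.9% of all probe sets did so. They lay below both for 6 (7.14%), against 17.3% of all. The same order was found for 28 of the 38 probe sets of family 2 (73.7%), but also for 15 of the 19 foreign controls (78.9%). The foreign controls were higher by a median of 0.55 and all probe sets by 0.43. For the 22 P450 probe sets above the foreign 90th percentile on all 6 arrays the median difference was 1.20, with 19 of 22 above 0, against 0.31 and 2516 of 3995 for all probe sets above it. The level to clear is higher on the ARB arrays, so this choice favours probe sets that are high there.

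Among the 32 tested, 14 were higher in ARB than in ACEI at an unadjusted p under 0.05, where 15.6% of all tested probe sets were, and 1 was lower, where 6.71% were. Both ARB arrays lay above both ACEI arrays for 20 of the 32, where 37.1% of all tested did, and below both for 4, where 25.3% did. A difference above 0 was found for 24, against 56.5%. The median difference of the 32 was 1.01, against 0.15 for all tested. Some of the 32, such as Cyp2c11, passed the filter on low values through the ARB arrays, so these counts describe them and do not stand for all members. When arrays were first brought to a common distribution, the median of all tested probe sets was -0.04 (quantile) or -0.01 (cyclic loess) and the P450 median 0.69 with either. Relative to all probe sets, the P450 shift was then 0.74 and 0.70, against 0.85 without it.

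**Figure D3:**
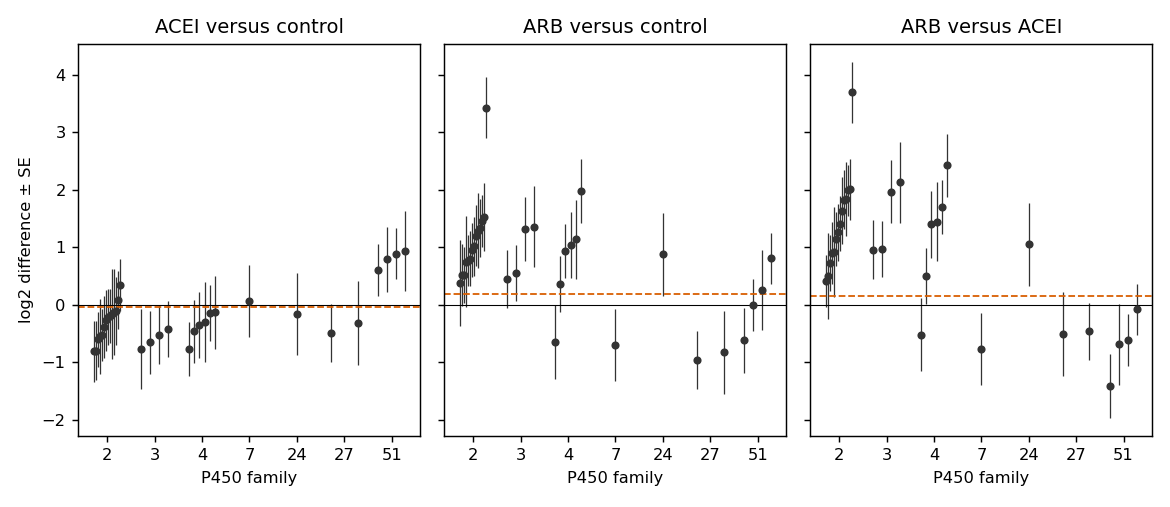
Log2 difference of each P450 probe set by family, for the comparisons between groups. Dashed lines mark the median of all tested probe sets, which was 0.15 for ARB versus ACEI, where all 14 tested probe sets of family 2 and all 4 of family 3 lay above 0 and all 4 of family 51 below 0. Of all tested probe sets, 56.5% lay above 0 there.

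The largest fitted difference among the 84 was that of Cyp2c11, the main male-specific steroid and drug hydroxylase of rat liver. Its probe set J02657_s_at read 69.7 and 115.5 (control), 124.0 and 15.8 (ACEI) and 2360.8 and 1469.5 (ARB). Both ARB arrays stood far above the other 4, on 3 of which the probe set was near the foreign level. The fitted difference was 3.70 ± 0.53 against ACEI (limma adjusted p = 0.112) and 3.43 ± 0.53 against control (limma adjusted p = 0.158). Both ACEI arrays and control 1 were near the foreign level, so neither gives a measured fold. With the ACEI arrays set at their foreign 90th percentile, the ARB mean was at least 11.6-fold higher. The other probe sets of Cyp2c11 did not show this. M18363cds_s_at read 33.0 and 25.3 (control), 113.6 and 51.5 (ACEI) and 130.5 and 74.4 (ARB), and X79081mRNA_f_at read 40.8 and 47.9, 62.4 and 101.2, and 109.0 and 218.8 in the same order. On the ARB arrays both lay near the foreign level, so the probe sets of this gene disagree.

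Cyp2c13, another liver steroid hydroxylase, read 181.7 and 179.9 (control), 126.9 and 72.8 (ACEI) and 617.7 and 696.4 (ARB) on M82855cds_s_at. Its ARB arrays were above all others, by 1.99 ± 0.45 against ACEI (limma adjusted p = 0.127). Its second probe set, J02861mRNA_s_at, was near the foreign level on all 6 arrays. Cyp2c23, a renal epoxygenase that makes vasodilator epoxides from arachidonic acid, read 244.3 and 89.2 (control), 206.7 and 135.3 (ACEI) and 588.2 and 472.3 (ARB) on X55446mRNA_at. The ARB arrays were above all 4 others, by 1.34 ± 0.50 against control (limma adjusted p = 0.254). Its probe set rc_AI169372_g_at differed from that order, with 297.7 and 360.8, 534.9 and 145.9, and 1037.5 and 170.8. Its probe set U04733_s_at was highest on control 1 and read 72.8 on control 2, 79.7 and 29.6 (ACEI) and 58.0 and 94.5 (ARB), and lay near the foreign level on all but the control arrays.

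Cyp2b15, of the phenobarbital-inducible subfamily, read 724.8 and 441.2 (control), 445.3 and 171.3 (ACEI) and 1563.1 and 1288.6 (ARB) on D17349cds_f_at, a probe set of a type that can bind several family members. Its ARB arrays were above all 4 others, by 2.01 ± 0.53 against ACEI (limma adjusted p = 0.128). The _s_at probe sets given for Cyp2c11, Cyp2c13 and Cyp2e1 can likewise read several like transcripts, which was not checked. Cyp2e1, the ethanol-oxidising P450 that is also present in brain, had 2 probe sets above the foreign level on all 6 arrays and 1 near it on all 6. M20131cds_s_at read 275.4 and 430.0 (control), 583.5 and 152.4 (ACEI) and 1430.3 and 959.0 (ARB), and was 1.53 ± 0.59 above control in the ARB group (limma adjusted p = 0.257). S48325_s_at read 430.7 and 506.8, 538.8 and 284.8, and 968.2 and 999.4 in the same order. Both probe sets had the ARB arrays above all 4 others. The third, AF056333_s_at, read 9.3 to 49.1 outside the ARB group and 234.0 and 92.4 in it.

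In family 3, the pregnane-inducible Cyp3a23-3a1 read 598.9 and 749.5 (control), 673.0 and 219.6 (ACEI) and 1598.5 and 2054.7 (ARB) on L24207_i_at. On L24207_r_at, a probe set for the same transcript, it read 504.0 and 416.3, 579.9 and 64.2, and 1774.8 and 969.2. Both had the ARB arrays above the other 4, with differences from ACEI of 1.97 ± 0.55 (limma adjusted p = 0.135) and 2.13 ± 0.70 (limma adjusted p = 0.149). ACEI 2 was the lowest array on both, while ACEI 1 lay between the controls or above them. The gene's other probe sets, X64401cds_s_at (ARB 439.4 and 778.3, other arrays 188.2 to 375.6) and D13912_s_at (ARB 679.5 and 324.5, other arrays 88.9 to 159.3), also had the ARB arrays highest.

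In family 4, Cyp4a8, a fatty acid omega-hydroxylase, read 238.1 and 322.0 (control), 326.0 and 82.6 (ACEI) and 1639.3 and 1121.1 (ARB) on rc_AA893011_at. The ARB arrays were above all others, by 2.43 ± 0.55 against ACEI (limma adjusted p = 0.127) and 1.98 ± 0.55 against control (limma adjusted p = 0.201). Its other probe set, M37828_at, read 735.9 and 656.8, 786.7 and 341.9, and 966.7 and 2391.5, in the same order of groups. Cyp4f6, which acts on eicosanoids and is known from brain, did not show such a gap, with 2058.8 and 3363.1 (control), 2902.1 and 1948.7 (ACEI) and 3671.3 and 3142.8 (ARB) on U39208_at. Its control and ARB arrays overlapped, and treated rats differed from control by 0.11 ± 0.42 (limma adjusted p = 0.968). Cyp4f4 lay below the filter, at 190.1 and 268.1, 224.8 and 268.8, and 228.7 and 109.1.

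**Figure D4:**
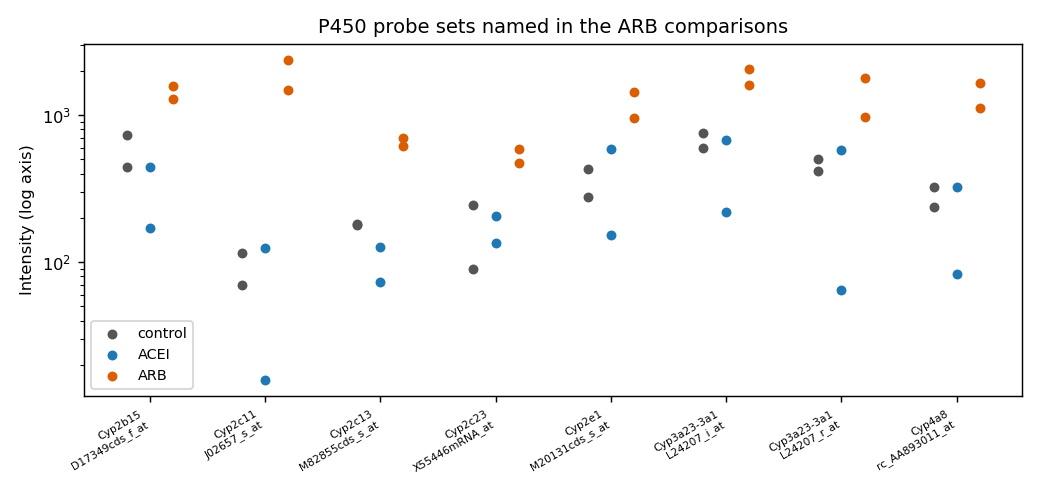
Intensity on each array (log axis) of 8 tested P450 probe sets, which are the up to 6 with the largest differences at an unadjusted p under 0.05 from each ARB comparison (against control and against ACEI) put together, with control, ACEI and ARB arrays marked. In each of them both ARB arrays lie above all 4 others; Cyp2c11 J02657_s_at spans 15.8 to 2360.8.

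Against control, the ARB group had both arrays above both controls for 47 of 84 P450 probe sets (56.0%), where 43.9% of all probe sets did. The median difference over the 84 was 0.62, against 0.43 for all probe sets and 0.60 for the foreign controls. Of the 32 tested, 6 were higher at an unadjusted p under 0.05 and 0 lower, where 12.6% of all tested were higher and 4.69% lower. Both ARB arrays lay above both controls for 19 of the 32, against 33.4%, and below both for 1, against 16.8%. A difference above 0 was found for 26, against 58.1%. It was found for 22 of 33 after quantile normalization, which moved the set of tested probe sets, and for 22 of 32 after cyclic loess. Above the median of all tested lay 26 of 32 on the deposited scale, 24 of 33 after quantile normalization and 22 of 32 after cyclic loess. On the later run day alone, the median of the 32 was 0.89 against control 2 and 1.39 against ACEI 2, where that of all tested was 0.31 and 0.20.

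Lisinopril-treated rats had P450 values that were on balance slightly below control, by a median of -0.16 over all 84 probe sets, against -0.03 for all probe sets. Both ACEI arrays lay below both controls for 18 of 84 (21.4%), where 12.9% of all probe sets did, and above them for 11 (13.1%), against 11.6%. None of the 32 tested had an unadjusted p under 0.05 in either direction, where 1.20% of all tested were higher and 1.39% lower. Both ACEI arrays lay above both controls for 4 of the 32 and below for 5, where 11.6% and 11.9% of all tested did, and a difference above 0 was found for 7, against 46.9%. The direction was not the same on the 2 run days. The median of the 32 was 0.16 for ACEI 1 against control 1, which were run on the first day, and -0.73 for ACEI 2 against control 2, run on the later day. For all tested probe sets it was 0.07 and -0.17. Without ACEI 1 the median of the 32 was -0.76, against -0.1 for all tested. Without ACEI 2 the median of the 32 was 0.17, against 0.12 for all tested. Then 21 of 32 were above 0 and 18 above the median of all tested. The fall below control thus rests on ACEI 2, without which the 32 lay near all tested probe sets.

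Cyp51, the lanosterol demethylase of cholesterol synthesis, had ACEI values above control on average on all 5 of its probe sets, by 0.09 to 0.94. AB004096_at read 579.9 and 530.0 (control), 1099.0 and 1117.7 (ACEI) and 1155.0 and 935.9 (ARB). All 4 treated arrays lay above both controls, by 0.85 ± 0.38 (limma adjusted p = 0.863), an order that 4.63% of all tested probe sets had. U17697_s_at read 1120.2 and 1006.7, 1871.4 and 1475.3, and 953.9 and 1175.7 in the same order, so that both ACEI arrays were above both controls, by 0.60 ± 0.45 (limma adjusted p = 0.992).

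The remaining Cyp51 probe sets differed among themselves. On rc_AA963449_s_at the values were 609.6 and 529.4 (control), 811.4 and 1353.9 (ACEI) and 184.1 and 580.1 (ARB), with ARB below ACEI by -1.41 ± 0.56 (limma adjusted p = 0.191). On rc_AA997614_s_at they were 559.3 and 56.8, 507.3 and 500.9, and 192.0 and 392.7, and the 2 controls spanned the values of all other arrays. On rc_AI230255_at, below the filter, they were 309.5 and 253.8, 382.2 and 240.6, and 70.1 and 59.3. ARB was below ACEI on average on all 5 probe sets, and both ARB arrays were below both ACEI arrays on 4 of them, where AB004096_at was the exception. Of all probe sets, 17.3% had both ARB arrays below both ACEI arrays. Both ARB readings of rc_AI230255_at were below the foreign median of their arrays (105.6 and 80.9). On ARB 1, rc_AA963449_s_at and rc_AA997614_s_at were near the foreign level. For these probe sets the size of the ARB difference is thus not a measured one. Against control, the ARB differences of the 5 probe sets ran from -1.26 to 0.81.

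**Figure D5:**
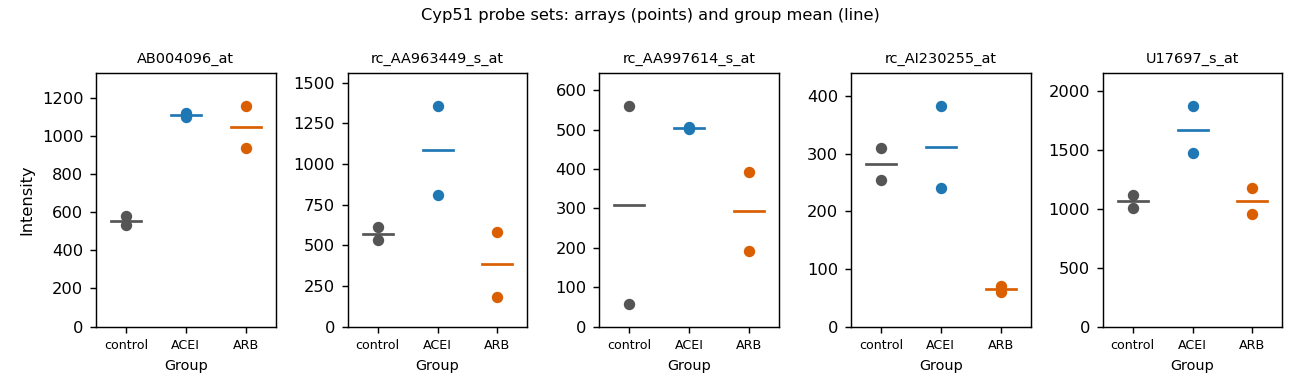
Intensity of the 5 Cyp51 probe sets on each array, with groups marked. AB004096_at has all 4 treated arrays (935.9 to 1155.0) above both controls (530.0 and 579.9), and rc_AI230255_at has the ARB arrays at 59.3 and 70.1, both near the foreign level.

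Of the other sterol P450s, Cyp27a1, the mitochondrial sterol 27-hydroxylase, read 1122.3 and 2162.4 (control), 930.3 and 1263.8 (ACEI) and 858.0 and 675.2 (ARB) on M38566mRNA_s_at. Both ARB arrays lay below both controls and both ACEI arrays, by -0.96 ± 0.50 against control (limma adjusted p = 0.35). Its second probe set, Y07534cds_s_at, read 1029.0 and 157.7, 241.2 and 447.1, and 300.3 and 133.2, with the 2 controls at its highest and near its lowest values, and gave no group order. Cyp7b1, the oxysterol 7-alpha-hydroxylase, read 351.2 and 953.9, 701.6 and 551.9, and 165.9 and 594.0 on U36992_at, and its groups overlapped. Cyp7a1, the rate-limiting enzyme of bile acid synthesis in liver, was below the filter on both probe sets, J05460_s_at (34.0 to 159.6) and J05509Complete_seq_i_at (2.1 to 420.2). Cyp46a1, the brain cholesterol 24-hydroxylase, and Cyp2j4 were not among the members.

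No single-symbol probe set for a P450 of steroid hormone synthesis passed the filter. Cyp11a1, the side-chain cleavage enzyme that starts steroid synthesis, read 106.3 and 82.2 (control), 58.7 and 41.6 (ACEI) and 419.9 and 658.1 (ARB), with the ARB arrays highest, below the filter. Cyp17a1, which makes androgen precursors, read 24.0 and 25.8, 22.0 and 32.8, and 89.8 and 131.3, near the foreign level on every array. Cyp21a1, the steroid 21-hydroxylase, read 88.5 and 303.9, 97.0 and 65.0, and 161.5 and 1080.3 on U56853_s_at, with ARB 2 far above the rest. Cyp11b2, the aldosterone synthase, read 131.0 and 50.6, 28.6 and 29.5, and 107.8 and 79.5 on D14097cds_s_at. Cyp19a1, the aromatase, read 164.0 and 163.0, 115.7 and 139.7, and 92.1 and 84.6, with the lowest values on the ARB arrays. Cyp4b1, of another family, was likewise lower on all 4 treated arrays than on both controls, at 269.8 and 290.3 (control), 179.9 and 95.7 (ACEI) and 62.7 and 119.1 (ARB). Treated arrays below both controls were seen in 2 of 84 P450 probe sets, these 2, and in 2.64% of all probe sets; neither was tested, and 0 of the 32 tested had that order, against 3.72%. On the ARB arrays both lay near the foreign level.

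For vitamin D, Cyp24a1, which inactivates the hormone, read 717.4 and 275.6 (control), 902.6 and 147.4 (ACEI) and 1011.9 and 822.5 (ARB) on Z28351exon_s_at. Its ARB arrays were above both controls and its ACEI arrays straddled them. The second Cyp24a1 probe set, L04619_s_at, lay far lower and below the filter. It read 14.7 and 74.2, 18.1 and 8.8, and 146.4 and 76.8, near the foreign level on all arrays but control 2. Cyp26b1, which breaks down retinoic acid, read 293.5 and 231.6, 55.6 and 105.1, and 350.0 and 94.9, below the filter. In family 1, Cyp1a1, the main target of the aryl hydrocarbon receptor, read 41.7 and 48.4, 67.0 and 17.6, and 95.4 and 74.6. Cyp1b1, a P450 known from brain vessels, lay between 4.2 and 527.0 over its 4 probe sets, none of which passed the filter. No probe set of family 1 was tested.

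Taken over both drugs, 27 of the 32 tested P450 probe sets had a positive difference from control, where 59.6% of all tested did, and the median was 0.29 against 0.13. After quantile normalization 21 of 33 were positive and after cyclic loess 18 of 32, where the median of all tested was -0.03 and 0.02. Above the median of all tested lay 19 of 32 on the deposited scale, 21 of 33 after quantile normalization and 18 of 32 after cyclic loess. The count above 0 thus rests on the scaling, which moved all tested probe sets too. Without ACEI 1 the P450 median was 0.00, against 0.06 for all tested. The treated arrays were all above both controls for 7 of 84 P450 probe sets (8.33%), where 6.42% of all were. At an unadjusted p under 0.05, 1 was higher and 0 lower, where 3.05% and 2.02% of all tested were. The one was Cyp2c11 J02657_s_at (1.58 ± 0.46, limma adjusted p = 0.863), whose ACEI arrays overlapped the controls. Of the brain-known Cyp2d4, the probe set U48220_at read 591.8 and 410.4 (control), 669.4 and 642.1 (ACEI) and 911.3 and 897.4 (ARB), all 4 treated arrays above both controls, by 0.56 ± 0.39 (limma adjusted p = 0.863). Its other probe set, rc_AA997886_s_at, read 3281.8 and 3044.3, 3204.5 and 2304.7, and 6090.2 and 3415.5 and showed no such order.

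Genes that work with P450s were also read. Of the electron donors, 13 probe sets were tested and none passed an adjusted p of 0.05. In ARB against ACEI, 56.5% of all tested probe sets were above 0, and 15.6% were higher and 6.71% lower at an unadjusted p under 0.05, with a median of 0.15. The electron donors had a median of 0.13, 2 were higher and 0 lower. Por, the P450 reductase, read 2034.3 and 2148.7 (control), 1510.4 and 1785.7 (ACEI) and 2039.0 and 2171.0 (ARB) on M10068mRNA_s_at, so that the ARB and control arrays lay together. The other Por probe sets differed from it, with 1505.0 and 46.5, 1480.6 and 839.2, and 539.0 and 334.3 on E01524cds_s_at and 2299.7 and 635.8, 1222.5 and 650.4, and 1392.0 and 2122.1 on rc_AI137856_s_at. Of the 14 tested probe sets of xenobiotic and lipid nuclear receptors, which switch many P450 genes, 13 were above 0 in ARB against ACEI, with a median of 1.00, and 3 were higher and 1 lower at an unadjusted p under 0.05. Of all 32 probe sets of these receptors, 11 were above the foreign 90th percentile on all 6 arrays. Both ARB arrays lay above both ACEI arrays for 21 (65.6%), against 46.9% of all probe sets and 78.9% of the foreign controls. Among the steroid and sterol partners, 21 were tested, with a median of -0.23 in ARB against ACEI and 14 below 0. Fdft1, squalene synthase, read 687.9 and 487.5 (control), 989.1 and 1073.5 (ACEI) and 177.6 and 234.2 (ARB) on M95591_at, the lowest values on the ARB arrays. On both ARB arrays it was near the foreign level. Sqle, squalene epoxidase, by contrast, read 904.2 and 1559.1, 1008.1 and 1491.3, and 1331.7 and 1571.5. Of the 8 tested probe sets of eicosanoid partners, 1 was higher in ARB than in ACEI at an unadjusted p under 0.05 and 0 lower; against control, 2 were lower over both drugs, where 2.02% of all tested were. They include Alox15, a lipoxygenase, which read 7037.3 and 4196.1 (control), 26.1 and 378.0 (ACEI) and 58.8 and 189.1 (ARB) on L06040_s_at. It was near the foreign level on ACEI 1 and on both ARB arrays. Ptgis, prostacyclin synthase, a P450 without a Cyp symbol, read 960.1 and 711.1, 775.0 and 749.7, and 416.4 and 224.0 on U53855_at, with the ARB arrays lowest. On ARB 2 it was near the foreign level. Of 10 tested probe sets for haem supply and breakdown, 1 was lower in ARB than in ACEI at an unadjusted p under 0.05. That was Alas1, the first enzyme of haem synthesis, which read 634.2 and 677.7, 785.5 and 1148.3, and 61.9 and 59.8 on J03190_at. Both ARB readings were below the foreign median of their arrays (105.6 and 80.9), so they give no measured level.

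Of 19 endothelial probe sets, 11 (57.9%) were above the foreign 90th percentile on all 6 arrays, against 45.7% of all probe sets. Markers of several cell types differed between the ARB arrays and the others, and some also between ACEI and control. Hepatocyte markers, taken because the P450 families 2 and 3 are liver-type, were present at 31 probe sets, of which 3 were above the foreign 90th percentile on all 6 arrays. Their summed intensity was 9665 and 13652 for ARB and 6715 to 10026 for the other 4 arrays. Both ARB arrays were above both ACEI arrays for 23 of the 31 (74.2%), where 46.9% of all probe sets and 78.9% of the foreign controls had that order. Alb, albumin, the defining marker, read 79.3 and 162.4 (control), 145.0 and 10.7 (ACEI) and 649.0 and 593.5 (ARB) on rc_AA860062_at, and its other 3 probe sets ranged from 9.4 to 523.0. The summed choroid plexus and leptomeninges markers were 68068 to 183372 outside the ARB group and 419305 and 445208 in it. A large part of the ARB sums came from 1 probe set of Ttr, transthyretin. This probe set, rc_AA945169_at, read 194511.8 and 217986.1 in the ARB group and 9793.6 to 66047.9 outside it. Of the 20 probe sets in this list, 10 had both ARB arrays above both ACEI arrays, where 46.9% of all probe sets did. Another 5 had both below, where 17.3% of all did. Both ARB arrays lay above both controls for 6 of the 20, against 43.9% of all. The 11 oligodendrocyte probe sets were all lower on both ARB arrays than on both ACEI arrays, and 9 of 13 microglia and macrophage and 9 of 19 endothelial ones were, where 17.3% of all probe sets were. Astrocyte sums were 52694 to 90516 outside the ARB group and 23482 and 24475 in it, and 9 of the 12 tested astrocyte probe sets were lower than in ACEI at an unadjusted p under 0.05. Neuron sums were 3092 and 3908 (control), 6722 and 6700 (ACEI) and 9121 and 10417 (ARB), so both drug groups were above control. The median difference of the 7 tested neuron probe sets was 1.05 for ACEI against control and 0.38 for ARB against ACEI. The 5 blood cell probe sets had median differences of -2.84 from control and -1.44 from ACEI in the ARB group, and of -1.06 from control in the ACEI group. Their sums were 56070 and 170558 (control), 49662 and 72180 (ACEI) and 61577 and 51916 (ARB), and did not set the ARB group apart. Pericyte and smooth muscle sums were 18360 to 43918 outside the ARB group and 20502 and 23919 in it. Endothelial sums were 95411 to 164726 outside the ARB group and 72638 and 82455 in it. The part of these shifts in the P450 differences was not tested.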

How the data were processed

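RNA of brain capillaries was read on 6 arrays, 2 per group. The deposited table held 1 linear intensity per probe set and array; the authors' software, background correction and normalization are not given in the sources used here, and the number of arrays limits the precision. Run day, chip lot and fluidics protocol came from other run settings, text per the file headers. P450 probe sets were found by gene symbol from the platform annotation: of 8799 probe sets, 59 were controls, 7018 had 1 symbol, 308 several and 1473 none; all 84 P450 probe sets matched RefSeq by gene identifier and 0 symbols changed.

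To each intensity 90 was added, which is 358.3 (the overall median of non-zero readings) over 4, before log2 was taken. The 40% with the lowest mean were set aside, and limma 3.58.1 (R 4.3.3) fitted 1 mean per group to the other 5244, p-values being two-sided and adjusted after Benjamini and Hochberg over all 5244, with 0.05 as the limit. Python 3.11.15, pandas 2.3.3 and matplotlib 3.10.9 made tables and figures. The fit was tested on simulated data. Members, gene lists and marker lists were chosen with earlier results of these data known. Text names, with a value on each array, the highest tested probe set of each family, up to 6 per comparison with an unadjusted p under 0.05 by size, those with all 4 treated arrays beyond both controls and above the foreign level in the higher group, and a set of named P450s of brain, steroid and sterol metabolism. Alternatives were the offset, the filter, the normalization, blocks for run day and replicate number, array weights, a variance trend and leaving out each array, and, chosen after seeing the data, the later day's 4 arrays by themselves. Upstream stretches came from RefSeq GRCr8, not from the build of the array design.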

Additional observations from a re-analysis of the deposited data

Results flagged for a closer look

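Of the 13 probe sets with several P450 symbols, which were outside the comparisons, 3 were above the foreign 90th percentile on all 6 arrays. K00996mRNA_s_at, for Cyp2b2 and Cyp2b1, read 1075.1 and 1100.2 (control), 1618.1 and 512.6 (ACEI) and 2724.6 and 3277.7 (ARB), with 512.6 as its lowest value. X62086mRNA_s_at, for Cyp3a2 and Cyp3a23-3a1, read 666.2 and 1100.9, 884.0 and 463.3, and 2170.1 and 1870.4 in the same order, with 463.3 as its lowest. D00568_s_at, for Cyp11b1 and Cyp11b2, which make corticosterone and aldosterone, read 143.6 and 269.8, 133.8 and 175.9, and 757.8 and 915.5, with 133.8 as its lowest. In these 3, both ARB arrays lay above the other 4, but the foreign level to clear is highest on the ARB arrays, so this choice favours probe sets that are high there. Others went the other way. J02869mRNA_s_at, for Cyp2d5 and Cyp2d1, read 571.9 and 308.6, 318.5 and 705.1, and 266.2 and 46.1, with both ARB arrays below the other 4. J02669_s_at, for Cyp2a2 and Cyp2a1, read 460.2 and 385.3, 531.3 and 161.2, and 193.8 and 338.5, with both ARB arrays below both controls. On both ARB arrays J02869mRNA_s_at and J02669_s_at were near the foreign level, so the size of these differences is not a measured one. Groups of 2 arrays are too small for a check of single outlying arrays.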

How the results depend on the processing

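No P450 probe set passed an adjusted limma p of 0.05 in any of the 4 comparisons with the offset, filter, normalization, variance trend or run-day settings tried. The exception was ARB versus ACEI, with 7 P450 calls under array weights (518 of all probe sets, 9.88%) and 0 to 3 when single arrays were left out; the 3 came without control 1 or control 2 (305 of all, 5.82%), which enter only the pooled spread. The P450 median difference of ACEI versus control ran from -0.76 to 0.17 when single arrays were left out, and was -0.76 without ACEI 1. Same-numbered arrays shared a fluidics protocol, and those of control and ACEI also a run day and a chip lot. Their deviations from the group means correlated at 0.045, -0.015 and -0.004. The replicate block, which is thus also a block for that protocol, gave 0 P450 calls in every comparison. With the foreign median as the level, 33 P450 probe sets were near it on at least 1 array, against 62 with the 90th percentile and 70 with 2 times that. On the later run day alone, the difference of treated from control turned for Cyp27a1 Y07534cds_s_at (0.68), Cyp3a23-3a1 L24207_i_at (-0.13) and Cyp4f6 U39208_at (-0.37). For Cyp51 U17697_s_at the difference of ARB from control was 0.0 ± 0.45 in the main fit and so had no direction. It was 0.07 on the later day and 0.11 with run day as a block. Quantile and cyclic loess normalization turned Cyp51 rc_AA963449_s_at for treated against control (-0.29 and -0.12) and rc_AA997614_s_at for ARB against control (-0.31 and -0.35). Leaving out single arrays gave ranges that cross 0 for Cyp24a1 Z28351exon_s_at (-0.21 to 0.93), Cyp27a1 Y07534cds_s_at (-1.67 to 0.51), Cyp2d4 rc_AA997886_s_at (-0.05 to 0.36), Cyp4f6 U39208_at (-0.23 to 0.45), Cyp7b1 U36992_at (-0.93 to 0.31), Cyp51 rc_AA963449_s_at (-0.24 to 0.41) and Cyp51 rc_AA997614_s_at (-0.47 to 1.67), all for treated against control. For Cyp51 they crossed 0 also for AB004096_at in ARB against ACEI (-0.22 to 0.06), for U17697_s_at (-0.14 to 0.14), rc_AA963449_s_at (-1.26 to 0.03) and rc_AA997614_s_at (-0.82 to 1.33) in ARB against control, and for rc_AA997614_s_at in ACEI against control (-0.13 to 2.02). The causes were not tested. Signal near the foreign level limits 62 of the 84 probe sets, where a low reading does not show that the transcript is absent.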
